A study of Mus musculus with 14 samples.

Results

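Interferon-stimulated genes were followed through neck skin of mice treated with MC903. The 39 genes were taken by symbol from a table of 35327 gene symbols, and all 39 were found. Every one of them also passed the filter on low counts, which left 20939 genes in the tests. By role they are 12 antiviral effectors that are classical targets of type I interferon, 9 GTPases best known as targets of interferon gamma, 4 transcription factors, 3 sensors of nucleic acid and 11 other induced genes. The rule uses only the symbols.

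Type I interferons (alpha and beta) bind the receptor made of IFNAR1 and IFNAR2, and its kinases JAK1 and TYK2 activate a complex that holds STAT2 and IRF9 and binds a promoter element called ISRE. Interferon gamma, released mainly by T cells and NK cells, binds IFNGR1 and IFNGR2 and acts through another promoter element called GAS. The Ifit, Oas, Mx and Isg15 genes act against viral RNA and proteins, while Gbp, Irgm and Iigp1 proteins are GTPases that attack the membranes around pathogens inside cells, and many genes of both classes answer to either interferon.

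Polyadenylated RNA of frozen, cryosectioned skin was sequenced in 14 libraries from mice labelled female on a C57BL/6J background. Untreated wild-type skin, aged 6 weeks, gave 2 libraries. MC903, or calcipotriol, is an analogue of vitamin D that inflames skin in a way used to model atopic dermatitis. It was applied at 1 nmol in 100 µL daily for 6 days to the mice of the other 12. Wild-type mice of 6 weeks received in addition 20 µg per injection of an isotype control antibody (isotype group, 3 libraries) or of MAR1, an antibody against the IgE receptor that is used to deplete basophils (MAR1 group, 3 libraries), with 3 injections before MC903 and more every other day. Mice of 6 to 7 weeks without injections were Il4ra fl/fl (fl/fl group, 3 libraries) or Pdgfra-Cre Il4ra fl/fl (cKO group, 3 libraries). In the latter Cre acts in Pdgfra-expressing cells such as fibroblasts, so the receptor gene stays intact in other cells. The labels do not say whether the untreated libraries are from separate mice or whether their skin received vehicle, so the spread behind every p-value is that between these libraries and may in part be technical.

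Several libraries stood apart before any interferon gene was considered. Total counts were 5781684 to 10625780 with MAR1 and 16501815 to 55299576 in the other groups. Olfactory and vomeronasal receptor genes, which skin is not known to use, took 3.88, 7.55 and 9.38% of the counts in MAR1 libraries 1 to 3 and 1.49, 0.467 and 2.58% in cKO libraries 1 to 3, against at most 0.439% elsewhere. Libraries 1 and 2 of fl/fl held 26852 and 490523 counts of the salivary gland gene Bpifa2, against at most 4 in every other library. The targeted gene Il4ra was higher in every fl/fl library (145 to 215 CPM, counts per 1000000 after TMM scaling) than in every cKO library (14.5 to 70.7 CPM). It was also at 59.4 and 105 CPM in untreated skin, 179 to 196 CPM with isotype and 9.02 to 45.8 CPM with MAR1. Libraries 1 and 2 of cKO, at 70.7 and 67.9 CPM, thus lay within the untreated range. The Y-linked gene Ddx3y was at 69.9 CPM in cKO library 1 although the mice are labelled female.

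The interferon-stimulated genes themselves were well covered. Their counts summed to between 7433 and 74189 in a library. Only 1 gene in 1 library had no count, Ifit3b in MAR1 library 2. Between 2 and 4 members had under 10 counts in each MAR1 library, and none did elsewhere. Ifit3 and Ifit3b, and genes within the Oas and Gbp clusters, are close copies, and how the reads were shared between them is not given in the sources used here, so their single values are uncertain.

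Promoter sequences show how the binding elements of both pathways sit at these genes. The sequences are those of RefSeq on GRCm38.p6, an older build than the GRCm39 that the submitters' processing notes name, and 30 of the 39 genes had an entry. Shown are 3 type I effectors and 2 GTPases, those of each class with the smallest p in the first comparison below, as the 160 bases just before the annotated start, 5′ to 3′ on the strand of the gene. Capitals mark matches to GAAANNGAAA or its reverse complement TTTCNNTTTC (ISRE core) and to TTCNNNGAA (GAS, which reads the same on both strands).
Ifit3, chr19:34583369-34583528, plus strand: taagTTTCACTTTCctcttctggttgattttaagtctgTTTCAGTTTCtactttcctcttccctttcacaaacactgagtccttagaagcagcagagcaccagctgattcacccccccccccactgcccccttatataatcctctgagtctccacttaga
Isg15, chr4:156200819-156200978, minus strand: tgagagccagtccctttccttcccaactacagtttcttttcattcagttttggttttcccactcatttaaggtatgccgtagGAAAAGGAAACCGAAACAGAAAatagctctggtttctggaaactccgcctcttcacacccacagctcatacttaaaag
Oasl2, chr5:114896774-114896933, plus strand: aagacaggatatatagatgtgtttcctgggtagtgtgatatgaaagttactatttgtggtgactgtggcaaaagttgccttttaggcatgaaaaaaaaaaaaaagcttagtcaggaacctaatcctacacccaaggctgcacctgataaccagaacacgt
Irgm2, chr11:58214817-58214976, plus strand: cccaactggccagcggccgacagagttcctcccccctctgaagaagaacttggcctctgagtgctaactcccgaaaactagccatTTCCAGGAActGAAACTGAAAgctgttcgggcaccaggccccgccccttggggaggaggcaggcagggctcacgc
Gbp3, chr3:142559884-142560043, plus strand: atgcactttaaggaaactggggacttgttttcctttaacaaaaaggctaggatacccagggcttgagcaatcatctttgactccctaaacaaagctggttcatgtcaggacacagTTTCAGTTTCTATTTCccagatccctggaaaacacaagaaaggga

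Ifit3 carried 2 separate ISRE matches, and in Isg15 and in this start of Gbp3 overlapping matches merged into 1 longer run. In Irgm2 a GAS match lay just before an ISRE match. The window of Oasl2 held neither string, nor did that of a second annotated start of Gbp3. Over the window of 300 bases from 250 before to 50 after the start, the ISRE core was found at 19 of the 30 members with an entry (63.3%), against 3.99% of 27025 genes. By class it was found at 6 of 9 type I effectors, 7 of 7 GTPases, 1 of 4 transcription factors, 2 of 2 sensors and 3 of 8 other genes. The GAS string was found at 4 of 7 GTPases and 2 of 9 type I effectors, against 9.55% of all genes. A match describes the letters only.

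The first comparison asked how the genes differ between untreated skin and skin after MC903. In the isotype group 10 of the 39 genes fell and none rose. The 10 were the effectors Ifit3, Isg15, Oasl1, Oasl2 and Oas1a, the GTPase Irgm2, the transcription factor Irf7, the sensor Zbp1 and the genes Usp18 and Bst2. Calls are at an adjusted p under 0.05 (edgeR's quasi-likelihood test, Benjamini-Hochberg over all genes tested), and 1.72% of all genes were called lower. The median log2 fold change of the 39 was -2.28, against 0.11 over all genes. All libraries of the isotype group lay below both untreated libraries for 36 of the 39 genes, a pattern found at 22.6% of all genes.

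Ifit3 stood at 40.4 and 92.1 CPM in untreated skin and at 4.05, 3.54 and 6.19 CPM with isotype. Its log2 fold change was -3.85 ± 0.74 (SE, adjusted p = 0.0164). Isg15, a small protein attached to other proteins like ubiquitin, was at 16.5 and 60.8 CPM against 1.6, 2.33 and 3.51 CPM, a log2 fold change of -3.96 ± 0.80 (adjusted p = 0.020). Neither gene's groups overlapped, although untreated library 2 was 2.28 times library 1 for Ifit3 and 3.68 times for Isg15. Oasl2 and Oas1a belong to the oligoadenylate synthetases, which answer to double-stranded RNA. Oasl2 was at 34.9 and 55.7 CPM against 4.22, 4.38 and 7.8 CPM (log2 fold change -3.05 ± 0.66, adjusted p = 0.0255). Oas1a was at 35.8 and 67.7 CPM against 4.77, 3.54 and 8.09 CPM (-3.24 ± 0.74, adjusted p = 0.0321). For Oasl1 the log2 fold change was -3.87 ± 0.94 (adjusted p = 0.0407). The other 7 type I effectors did not pass, with log2 fold changes from -3.69 for Ifit3b to -2.002 for Mx2.

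Among the GTPases Irgm2, at 37.2 and 45.7 CPM in untreated skin and 5.68, 6.46 and 6.57 CPM with isotype, fell by 2.73 ± 0.62 on the log2 scale (adjusted p = 0.0312). Gbp3, Gbp2 and Irgm1 were next by p. Their log2 fold changes were -2.48 ± 0.65, -2.02 ± 0.54 and -1.94 ± 0.57, and their adjusted p were 0.0544, 0.0609 and 0.0827, so none passed although their groups did not overlap. Gbp4 and Gbp5 stood apart from the rest of the class. Gbp5, a GTPase that promotes inflammasome assembly, was at 7.82 and 23.7 CPM in untreated skin and 28.8, 13.4 and 21.2 CPM with isotype, with overlapping groups and a log2 fold change of 0.43 ± 0.92.

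Irf7, the factor that amplifies the production of type I interferon and is abundant in plasmacytoid dendritic cells, was at 95.4 and 104 CPM in untreated skin and 9.08, 8.19 and 16.2 CPM with isotype. This was a log2 fold change of -3.16 ± 0.68 (adjusted p = 0.0267). Stat2, Irf9 and Irf1 did not pass, at -1.46 ± 0.51, -1.16 ± 0.42 and -1.34 ± 0.59. Zbp1, a sensor of Z-form nucleic acid that can trigger necroptosis, was at 24.7 and 51.2 CPM against 3.94, 2.54 and 2.86 CPM and fell by 3.60 ± 0.87 (adjusted p = 0.0407). The RNA sensor Ifih1 (MDA5) and the helicase Ddx60 were at -1.72 ± 0.45 and -3.16 ± 0.89 and did not pass (adjusted p = 0.0563 and 0.074). Bst2, which tethers budding viruses to the cell and is the marker PDCA-1 of plasmacytoid dendritic cells, was at 172 and 181 CPM in untreated skin. With isotype it was at 20.8, 17 and 25.3 CPM, and it fell by 3.07 ± 0.62 (adjusted p = 0.0206). Usp18, which removes ISG15 from proteins and dampens the type I receptor, was at 20.9 and 30.3 CPM against 1.46, 1.79 and 3.21 CPM (-3.57 ± 0.87, adjusted p = 0.0412). Rtp4 and Cmpk2, the latter a mitochondrial kinase of nucleotides, were at -2.75 ± 0.75 and -2.68 ± 0.82 (adjusted p = 0.0672 and 0.101).

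**Figure D1:**
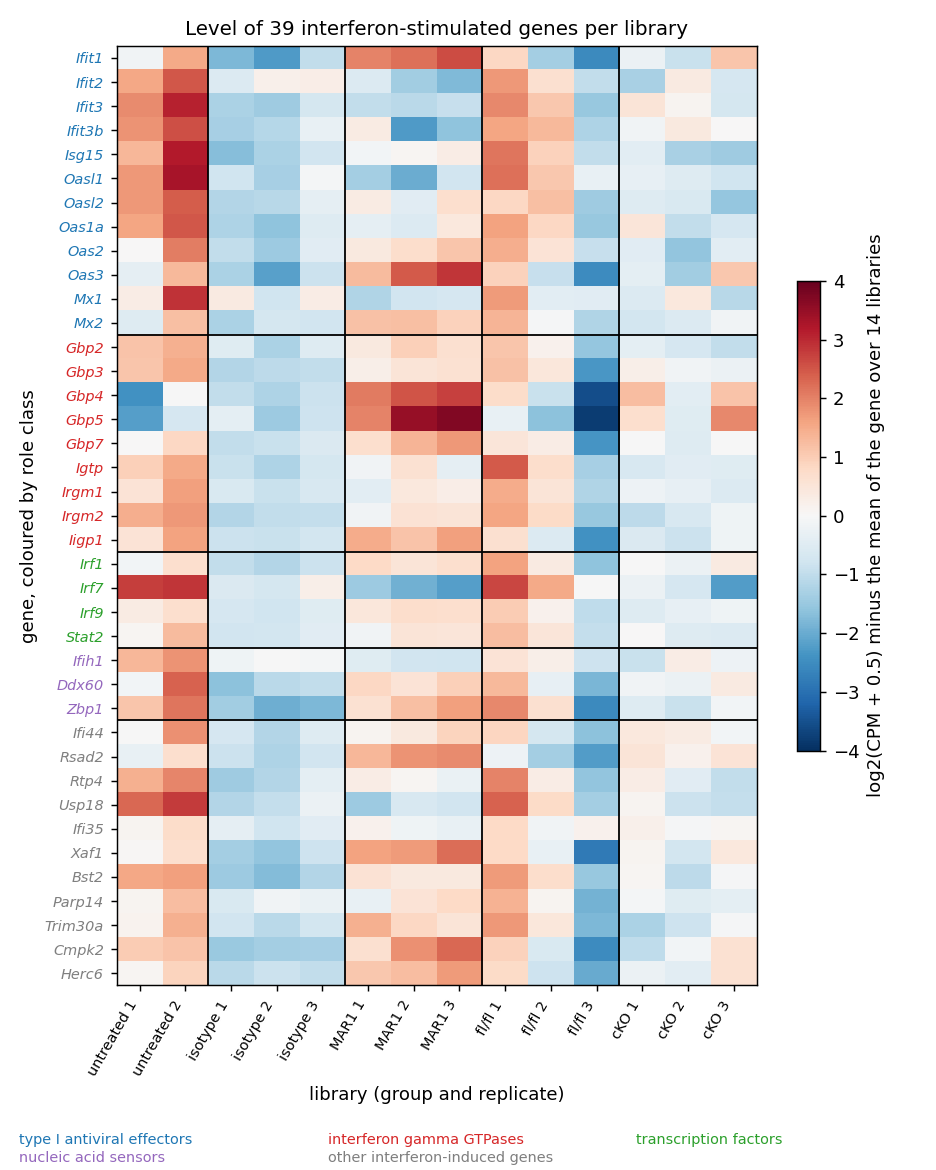
Each row is 1 of the 39 genes and each column 1 of the 14 libraries, with lines between groups and role classes. Colour gives log2(CPM + 0.5) minus the mean of the gene over the 14 libraries, so that red marks libraries above and blue libraries below the mean of that gene; the isotype columns are mostly blue and fl/fl library 3 is blue for nearly all genes.

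Untreated library 2 was above untreated library 1 for all 39 genes, by a median of 1.96 times, while 49.6% of all genes had that order. Within isotype the libraries were closer, with a median ratio of the highest to the lowest of 1.74. The calls rest on both libraries and on all 3 of the isotype group. Leaving out any 1 of these 5 libraries left 0 to 2 calls, and without untreated library 2 the median over the members was -0.95 with 35 of 39 genes below 0. Markers of several other cell types moved with the result, and those of others did not. The summed level of 8 dendritic and Langerhans cell markers was 4052 and 3873 CPM in untreated skin and 417 to 680 CPM with isotype, with 3 of the 8 lower. Most of that sum came from H2-Ab1 and Cd74, genes of MHC class II presentation. Their group means were 1166 and 2591 CPM in untreated skin and 133 and 262 CPM with isotype. Epcam and Xcr1 had higher means with isotype, and the remaining markers of the list lower ones. The 7 fibroblast markers summed to 11758 and 18900 CPM against 3590 to 4270 CPM, with 1 lower, and the 5 NK cell markers to 17.5 and 16.8 CPM against 2.1 to 5.82 CPM, with none called. The 7 T cell markers summed to 71.7 and 58.9 CPM against 17.6 to 29.5 CPM, with none called. Not every gene of these lists went that way. By group mean Pdgfra (66.9 CPM in untreated skin and 120 CPM with isotype), Ncr1, Klrb1c, Cd8a and Cd4 were higher with isotype. The other fibroblast, NK cell and T cell markers had lower means. Skeletal muscle markers were lower too (1595 to 11329 against 1053 to 1465 CPM). Sums of plasmacytoid dendritic cell (26.7 to 118 against 19.6 to 32.4 CPM), macrophage and monocyte (649 to 728 against 601 to 683 CPM) and endothelial markers overlapped. Most of the plasmacytoid dendritic cell sum was by group mean Cox6a2 (65.7 CPM in untreated skin and 16.9 CPM with isotype). Of the other genes in that list Ccr9 and Pacsin1 had higher means with isotype and Siglech a lower one. Keratinocyte (5467 to 15920 against 18376 to 35769 CPM), neutrophil and B cell sums were higher with isotype. No marker of these lists was at 0 in all libraries of either group, and their part in the result was not tested. In whole skin, fewer cells of a type and less RNA per cell cannot be told apart.

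In fl/fl mice, which received MC903 without injections, no member passed the test against untreated skin (edgeR), and 5 had an unadjusted p under 0.05. The smallest adjusted p was 0.0973, for Ifih1 at -1.53 ± 0.45. DESeq2 called 1 member, Ifih1. Of all genes 1.72% were called in this comparison in either direction. The comparison shares its untreated libraries with that of the isotype group. Of the 39 members 36 were below 0, with a median of -0.96, but the fl/fl libraries differed widely among themselves. The members summed to 1554, 729 and 220 CPM in the fl/fl libraries, in the order 1, 2, 3. They summed to 1044 and 1761 CPM in untreated skin and 279 to 379 CPM with isotype. For 37 of the 39 genes library 1 was above library 2 and library 2 above library 3, an order that 20.1% of all genes had.

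That gradient within fl/fl was steep. Irf7 was at 90.4, 39.9 and 13.5 CPM in libraries 1, 2 and 3. Isg15 was at 29.6, 12.3 and 2.9 CPM and Zbp1 at 44.2, 17.8 and 1.51 CPM. In these genes library 1 lay within or just under the untreated range, and library 3 within or under the isotype range. Over the 39 members the ratio of library 1 to library 3 was 9.89 at the median, from 1.55 for Ifi35 to 29.4 for Zbp1. Library 3 was below every untreated library for 38 of the 39 genes, against 34.5% of all genes. It was below every isotype library for 9 of 9 GTPases and 5 of 12 type I effectors (41.7%), against 38.9% of all genes. Several other measures had the same or the opposite order. From library 1 to 3, the T cell markers summed to 926, 159 and 7.24 CPM and the 5 B cell markers to 1148, 213 and 1.86 CPM. The dendritic and Langerhans cell markers summed to 5083, 1804 and 307 CPM, and the skeletal muscle markers to 53572, 14042 and 9032 CPM. The former sum was by group mean mostly H2-Ab1 and Cd74 (623 and 1690 CPM). The share of mitochondrial genes was 4.18, 3.31 and 2.28%. Keratinocyte markers ran the other way, at 4631, 23471 and 39157 CPM, as did Cyp24a1, a direct target of the vitamin D receptor that MC903 activates, at 1027, 1727 and 10563 CPM. Bpifa2 was highest in library 2. The part of these measures in the result was not tested. Without the 2 libraries that held salivary transcripts, an alternative chosen after the data were seen, library 3 is the only fl/fl library and is assumed to vary like the libraries of the other groups. All 39 members were then below 0, and 23 were called lower, while 982 of 21333 genes were called in either direction. Library 3 had already been seen to be the lowest of its group for 38 of the members.

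**Figure D2:**
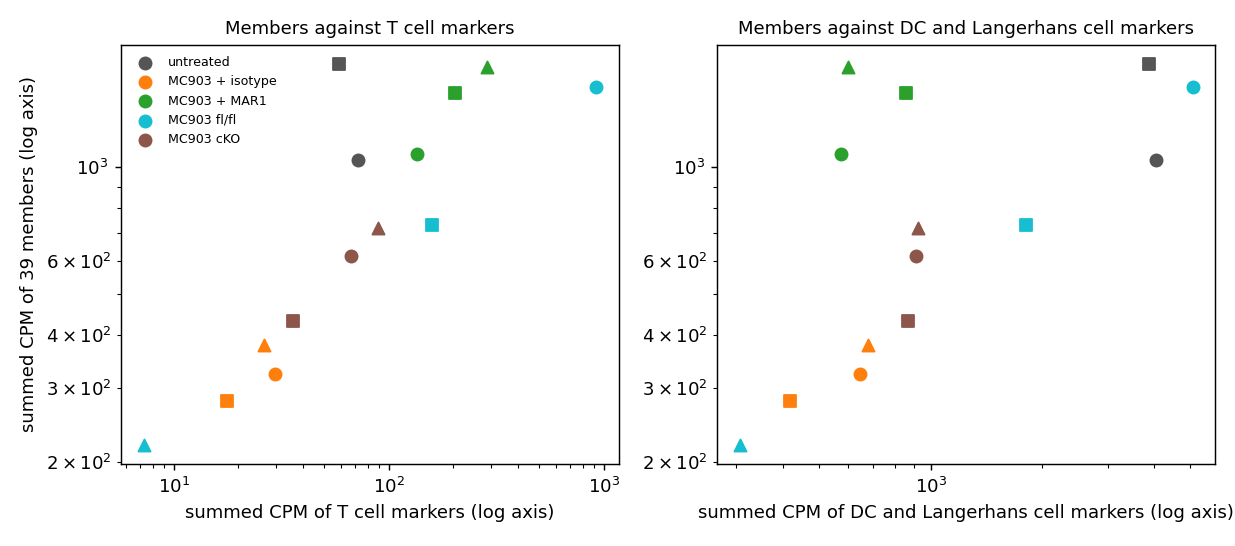
Each point is 1 library, with colour for the group and shape for the replicate (circle 1, square 2, triangle 3). The vertical axis is the summed CPM of the 39 members, and all axes are log axes. The horizontal axis is the summed CPM of T cell markers (left) or of dendritic and Langerhans cell markers (right). H2-Ab1 and Cd74 make up most of the latter sum by group mean. Within MC903-treated skin the library with the fewest T cell marker counts, fl/fl 3, also has the lowest member sum. Both untreated libraries have high member sums at 58.9 and 71.7 CPM of T cell markers.

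MAR1 was compared with isotype to ask how the antibody changes the genes within MC903-treated skin. Here 21 of the 39 genes rose and 1, Irf7, fell. Of all genes 22.6% were called higher and 26.5% lower, so the background is high, and the median log2 fold change was 1.45 for the members against 0.00 over all genes. By class 7 of 9 GTPases, 4 of 12 type I effectors, 2 of 4 transcription factors, 2 of 3 sensors and 6 of 11 other genes rose. All MAR1 libraries lay above all isotype libraries for 28 of the 39 genes, against 32.1% of all genes, and for all 9 GTPases.

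Gbp5 was at 150, 428 and 501 CPM with MAR1 and at 28.8, 13.4 and 21.2 CPM with isotype. The log2 fold change was 4.09 ± 0.91 (edgeR, adjusted p = 0.00334), the largest among the members. Every MAR1 value also exceeded the untreated values of 7.82 and 23.7 CPM. Gbp4 was at 115, 158 and 182 CPM against 13.2, 11.1 and 14.6 CPM (3.55 ± 0.92, adjusted p = 0.00756). Iigp1, which coats the vacuole of intracellular parasites, was at 43.4, 33.9 and 48.7 CPM against 8.25, 8.1 and 9.03 CPM. It rose by 2.31 ± 0.59 (adjusted p = 0.00642). Gbp7, Gbp3, Irgm2 and Gbp2 rose by 2.19, 1.59, 1.45 and 1.42 on the log2 scale. Igtp and Irgm1 were at 1.09 ± 0.66 and 0.85 ± 0.52 and did not pass. For Irgm2 the MAR1 libraries, at 12.1, 19.9 and 19.1 CPM, stayed below both untreated libraries.

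The type I effectors were split. Ifit1 was at 72.2, 84.7 and 113 CPM with MAR1 and 4.8, 3.31 and 8.82 CPM with isotype, a log2 fold change of 3.99 ± 0.88 (adjusted p = 0.00305). Oas3, which makes the second messenger that activates RNase L, was at 20.8, 47.5 and 63.3 CPM against at most 4.35 CPM in the isotype libraries (3.87 ± 0.98, adjusted p = 0.00667). Mx2 and Oas2 rose by 2.61 ± 0.91 and 1.81 ± 0.68 (adjusted p = 0.029 and 0.0403). The neighbours of these genes in the same families gave other values. Ifit3 was at 4.98, 4.63 and 5.26 CPM with MAR1, within the isotype range (0.11 ± 0.65). Ifit2 was at 2.75, 1.31 and 0.902 CPM, below all isotype libraries (-1.37 ± 0.75, adjusted p = 0.137). Isg15 was at 5.76, 6.64 and 7.82 CPM, above all isotype libraries (1.438 ± 0.70, adjusted p = 0.101). Oasl1 and Mx1 were at -1.17 ± 0.90 and -1.22 ± 0.92. Under RLE scaling Isg15 and Oasl2 also passed, at 2.05 and 1.77 (adjusted p = 0.0353 and 0.0305).

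Of the transcription factors Irf1, the early factor of the interferon gamma response, was at 64.2, 53.0 and 59.7 CPM with MAR1 and 18.6, 16.3 and 20.3 CPM with isotype. It rose by 1.68 ± 0.55 (adjusted p = 0.0231), and Irf9 by 1.26 ± 0.38 (adjusted p = 0.0157). Irf7 went the other way, at 4.64, 3.22 and 2.55 CPM against 9.08, 8.19 and 16.2 CPM (-1.67 ± 0.64, adjusted p = 0.0438). That call was lost when any 1 library was left out and under RLE scaling (-1.12, adjusted p = 0.144), with the same sign each time. Zbp1, at 17.4, 26.5 and 36.5 CPM with MAR1, rose by 3.10 ± 0.81 (adjusted p = 0.0076), and Ddx60 by 2.30 ± 0.82 (adjusted p = 0.0328). Rsad2 (viperin), which makes a nucleotide that ends viral RNA chains, was at 24.8, 34.5 and 37.0 CPM against 4.97, 3.75 and 5.35 CPM (2.77 ± 0.52, adjusted p = 0.00103). Its neighbour in the genome, Cmpk2, rose by 3.36 ± 0.80 (adjusted p = 0.00429). Xaf1, which promotes cell death, was at 57.3, 60.8 and 87.8 CPM against 6.88, 5.76 and 10.1 CPM (3.18 ± 0.69, adjusted p = 0.00263). Herc6, Bst2 and Trim30a rose by 2.49, 1.93 and 1.87, and Usp18 was at -0.23 ± 0.79.

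These values come from the libraries with the lowest depth and the largest receptor gene share, and keratinocyte markers fell in them at 6 of 6 genes and fibroblast markers at 5 of 7. T cell markers summed to 136, 204 and 285 CPM in MAR1 libraries 1 to 3 and 17.6 to 29.5 CPM with isotype, with 3 of the 7 higher and 1 lower. B cell sums (62.7 to 183 against 5.94 to 9.42 CPM) and neutrophil sums (494 to 612 against 71 to 151 CPM) were higher too. So were endothelial (987 to 1305 against 277 to 304 CPM), plasmacytoid dendritic cell and NK cell sums. By group mean with MAR1, Cxcr2 (430 CPM) and Pecam1 (1086 CPM) made up most of the neutrophil and endothelial sums. Macrophage, dendritic cell and skeletal muscle sums overlapped. The part of these measures in the result was not tested. Between 11 and 18 members were called when 1 library was left out. The 11 genes called higher under each such omission were Cmpk2, Gbp4, Gbp5, Gbp7, Herc6, Ifit1, Iigp1, Oas3, Rsad2, Xaf1 and Zbp1. With MAR1 library 1 as the only MAR1 library, assumed to vary like those of the other groups (an alternative chosen after the data were seen), Rsad2 was the only member called beside 2409 of 21024 genes, and 33 of 39 stayed above 0 with a median of 1.29. Scaling by RLE moved the median of all genes by 0.59, and 34 of 39 members were then above 0.

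**Figure D3:**
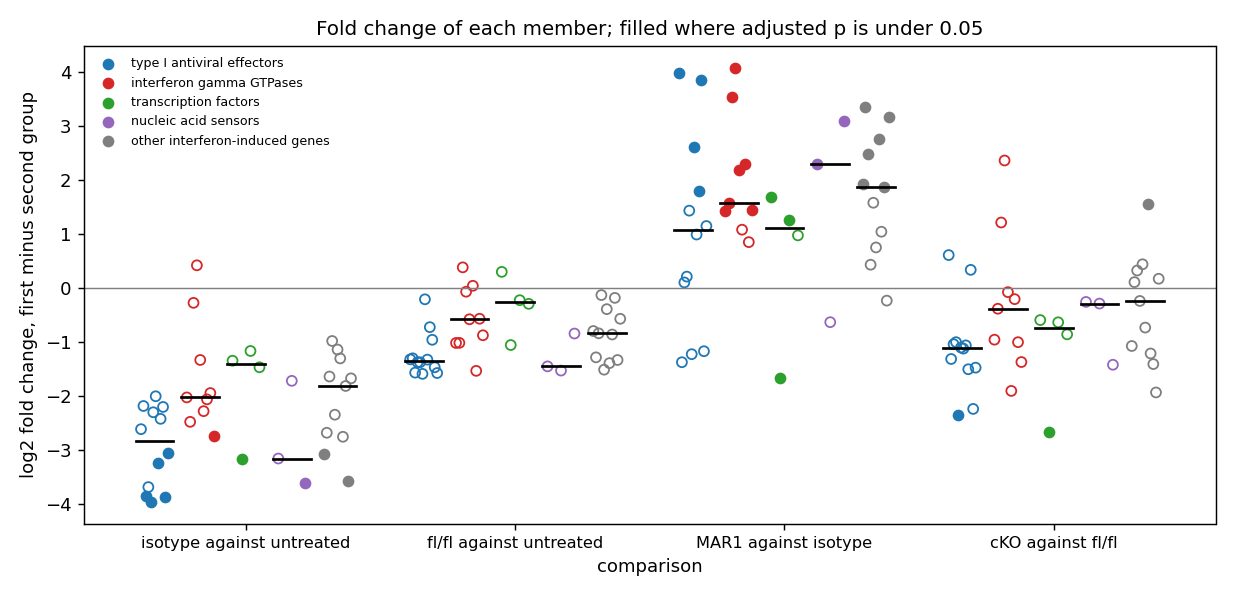
Each circle is 1 member in 1 of 4 comparisons, coloured by role class, with the log2 fold change of the first group minus the second on the vertical axis. Filled circles passed an adjusted p of 0.05 (edgeR), open circles did not, and bars are class medians; in MAR1 against isotype every GTPase lies above 0, while the type I effectors spread from -1.37 to 3.99.

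The cKO libraries, which share no sample with the MAR1 comparison, also differed in the receptor gene share, which was highest in library 3 and lowest in library 2. Of the 21 members that rose with MAR1, 17 were highest in cKO library 3 (81.0%), against 84.1% of all 4723 genes that rose with MAR1. Of the 18 other members none was, against 27.9% of all genes that did not rise. Gbp5 was at 61.1, 26.8 and 145 CPM and Oas3 at 6.2, 2.84 and 18.1 CPM in cKO libraries 1, 2 and 3. Irf7, in contrast, was at 11.7, 8.47 and 2.53 CPM and Oasl2 at 6.91, 6.41 and 3.12 CPM, lowest where the share was highest. In this order the members that rose with MAR1 were thus like the other genes that did so. T cell markers had the same order, at 66.8, 35.9 and 89.4 CPM. So did B cell (20, 10.3 and 43.1 CPM) and neutrophil markers (175, 142 and 246 CPM). Sums of NK cell, plasmacytoid dendritic cell, and dendritic and Langerhans cell markers had that order as well, and the other lists had other orders. Depth was lowest in library 3, at 16501815 counts. Which of these measures the members follow was not tested.

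Both classes were then set side by side as the mean log2 CPM over the genes of each (prior count 2). CPM does not allow for gene length, so the difference between the classes is read only from library to library. The mean of the 12 type I effectors was 3.38 and 4.91 in the untreated libraries and 0.96 to 1.94 with isotype. That of the 9 GTPases was 4.34 and 5.31 against 3.08 to 3.44. The type I mean minus the GTPase mean was therefore -0.96 and -0.40 in untreated skin, -2.20, -2.12 and -1.50 with isotype and -2.48, -3.63 and -2.94 with MAR1, with no overlap between these 3 groups. In fl/fl it was -1.24, -1.35 and -0.93, and in cKO -2.12, -1.89 and -2.37. The fl/fl libraries thus differed little in this difference although the classes themselves ranged widely among them, and all 3 lay above all cKO libraries. With MAR1 the mean of the GTPases was 4.91 to 5.52, within or just above the untreated range, and that of the type I effectors was 1.89 to 2.57, under it. Single genes differed within each class. Gbp2, Gbp3, Igtp, Irgm1 and Irgm2 stayed below both untreated libraries in every MAR1 library, while Gbp4 and Gbp5 lay above both. Of the type I effectors Ifit1 lay above both, Oas2, Oas3 and Mx2 lay within or above the untreated range, and the rest lay under it. The class medians of the log2 fold change were -2.83 for type I effectors and -2.02 for GTPases in isotype against untreated, and 1.07 and 1.59 in MAR1 against isotype. These are descriptions of chosen lists and carry no test.

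**Figure D4:**
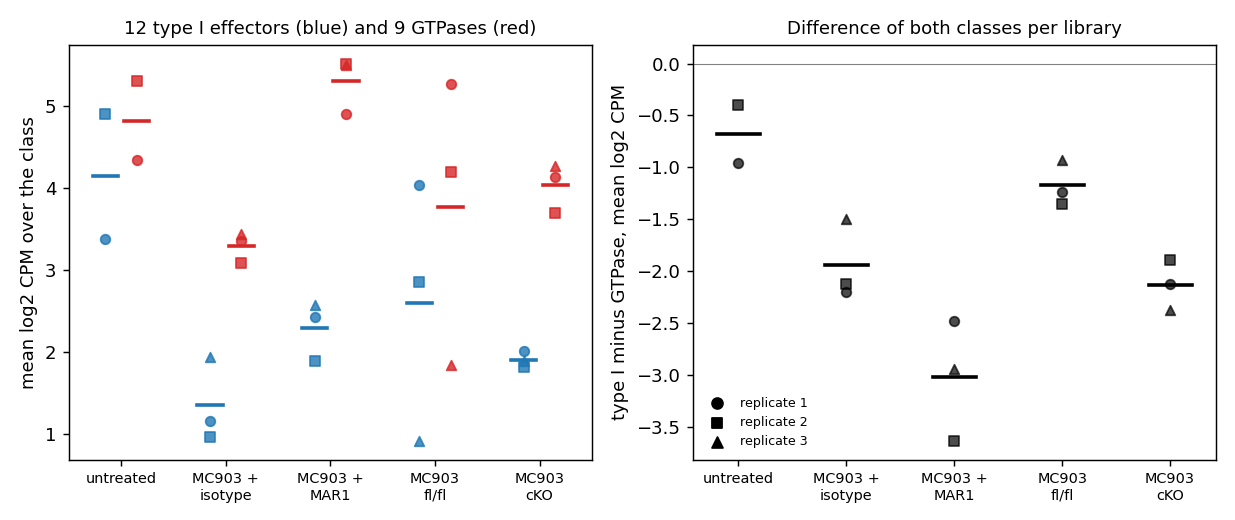
On the left, each point is the mean log2 CPM of the 12 type I effectors (blue) or the 9 GTPases (red) in 1 library, and on the right the difference of both means, with bars for group means and shapes for replicates. The difference runs from -0.40 in an untreated library to -3.63 in a MAR1 library, and fl/fl library 3 is the lowest library of its group for both classes.

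The comparison of cKO with fl/fl addressed the loss of Il4ra in Pdgfra-expressing cells. Rsad2 rose, and Irf7 and Isg15 fell. These are 3 of 39 members, while 18.7% of all genes were called in either direction, 12.7% higher and 5.97% lower. Irf7 was at 11.7, 8.47 and 2.53 CPM in cKO and 90.4, 39.9 and 13.5 CPM in fl/fl, without overlap, and fell by 2.66 ± 0.64 (edgeR, adjusted p = 0.0123). Isg15 was at 4.57, 2.22 and 2 CPM against 29.6, 12.3 and 2.9 CPM, with overlap, and fell by 2.34 ± 0.72 (adjusted p = 0.0363). Rsad2 was at 13.9, 10.9 and 14.3 CPM against 8.22, 3.39 and 1.63 CPM and rose by 1.56 ± 0.50 (adjusted p = 0.0441). Oasl1, Igtp and Usp18 were at -2.24 ± 0.85, -1.90 ± 0.67 and -1.93 ± 0.78, and Gbp5 at 2.37 ± 0.85 (adjusted p from 0.0617 to 0.0975). Stat2, Zbp1 and Ifih1 were at -0.85 ± 0.47, -1.42 ± 0.76 and -0.28 ± 0.41. The groups did not overlap for 3 of the 39 genes, against 29.4% of all genes.

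Here the direction of the values depended on the fl/fl libraries. With all 3, 30 of the 39 members were below 0 and the median was -0.95. Without fl/fl library 1, 29 were above 0 and the median was 0.39. Without libraries 1 and 2, which held the salivary transcripts, 37 were above 0, the median was 1.65 and Isg15 was at 0.31 (adjusted p = 0.847). That setting leaves library 3 alone in fl/fl, assumed to vary like the libraries of the other groups, and it called 7 members higher and none lower, with 656 of 21333 genes called. Without cKO library 1, which held Ddx3y, Irf7 and Isg15 were called and Rsad2 was at 1.51 (adjusted p = 0.0852). Leaving out any 1 of the 6 libraries gave between 1 and 9 calls. Irf7 stayed below 0 throughout, but at -0.55 without both libraries (adjusted p = 0.614). T cell markers were lower in cKO at 3 of 7 genes and B cell markers at 3 of 5, with sums of 35.9 to 89.4 CPM and 10.3 to 43.1 CPM in cKO. Skeletal muscle markers were lower at 4 of 6 genes, with sums of 17.4 to 2471 CPM in cKO against 9032 to 53572 CPM in fl/fl. Dendritic and Langerhans cell markers, by group mean mostly H2-Ab1 and Cd74, summed to 869 to 923 CPM against 307 to 5083 CPM, with 2 of 8 higher. Their part in the result was not tested.

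Both control arms carried MC903 and differ by the injections, the floxed allele and the labelled age, and they were compared with each other. Of the 39 members 37 were above 0 in fl/fl against isotype, with a median log2 fold change of 1.40 against -0.10 over all genes. An unadjusted p under 0.05 (edgeR) was found for 20 of them, beside 5079 of 20939 genes. Bst2 alone was called higher, with 1.25% of all genes called higher. It stood at 191, 95.8 and 19.9 CPM against 20.8, 17 and 25.3 CPM, with overlapping groups, and the log2 fold change was 2.28 ± 0.57 (edgeR, adjusted p = 0.0412). Without fl/fl libraries 1 and 2 it was at -0.39. Leaving out fl/fl library 1, fl/fl library 2 or any isotype library left no call, and leaving out fl/fl library 3 gave 15.

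The test of the cKO effect minus the MAR1 effect called 7 members lower, against 1.82% of all genes. They were Zbp1 (-4.52 ± 1.11, adjusted p = 0.0333), Bst2 (-3.00 ± 0.79, adjusted p = 0.0392), Isg15 (-3.78 ± 1.00, adjusted p = 0.0394), Irgm2 (-2.82 ± 0.79, adjusted p = 0.0461), Irf9 (-1.89 ± 0.54, adjusted p = 0.0475), Oas2 (-3.31 ± 0.96, adjusted p = 0.0488) and Trim30a (-3.28 ± 0.94, adjusted p = 0.0491). For each of them the log2 fold change was above 0 with MAR1 and below 0 with the deletion. The medians of the classes were alike, -2.34 for type I effectors and -2.33 for GTPases. None of the 7 was called without fl/fl library 1 or 2, without cKO library 1 or 2, without any 1 of the isotype libraries or without MAR1 library 2 or 3. Without MAR1 library 1 it was 3 members, without cKO library 3 it was 10 and without fl/fl library 3 it was 24. Without both fl/fl libraries with salivary transcripts, the median over the members was 0.32 and none was called.

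**Figure D5:**
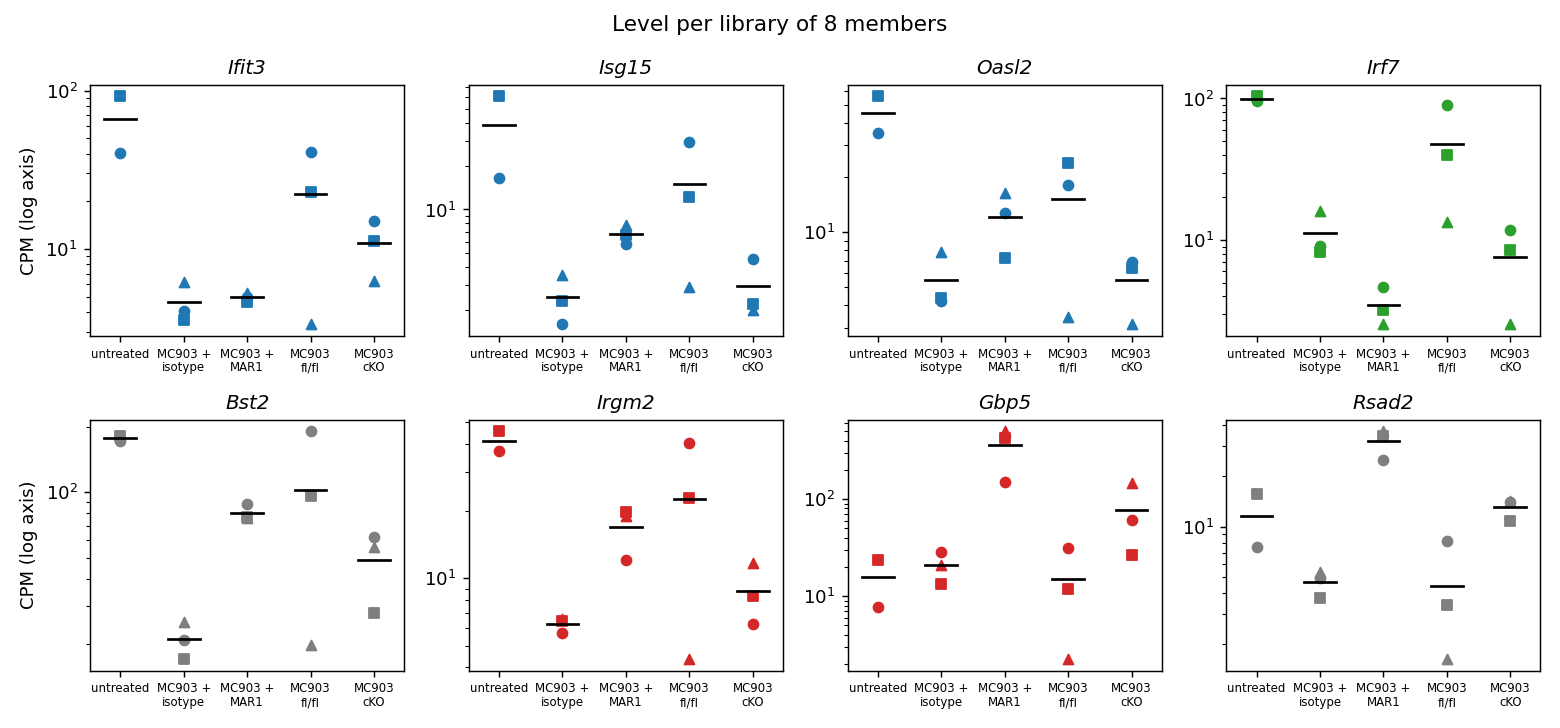
Levels of 8 members in CPM on log axes, with 1 point per library, shapes for the replicate (circle 1, square 2, triangle 3) and bars for group means. Ifit3, Isg15, Oasl2, Irf7, Bst2 and Irgm2 are high in untreated skin and low with isotype, whereas Gbp5 and Rsad2 have their highest levels with MAR1.

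The genes that make, sense and transmit interferon were taken from lists chosen with earlier results of these data in view. Of 21 ligand genes in the list 5 passed the filter on low counts. Ifng, the single gene for interferon gamma, had 27, 61 and 79 counts with MAR1 and 12, 13 and 10 with isotype. It rose by 4.31 ± 1.31 (edgeR, adjusted p = 0.0157), and in the other groups it had 16 and 9 counts (untreated), 48, 66 and 0 (fl/fl) and 24, 22 and 54 (cKO). Ifna7 rose by 3.99 ± 1.35 with MAR1 (adjusted p = 0.029) from 23, 8 and 2 counts to 18, 42 and 63. In cKO it had 21, 7 and 11 counts and was called higher than in fl/fl, where all 3 libraries were at 0 (adjusted p = 0.0173). Ifna13 was called higher in cKO as well, with 0, 26 and 21 counts against 0 in every fl/fl library (adjusted p = 0.046), and had 8, 23 and 29 counts with MAR1. The Ifna genes are close copies of each other, so their single counts are uncertain. All these counts are unscaled, and depth was lowest with MAR1. Within MAR1 the counts of Ifng, Ifna7 and Ifna13 rose from library 1 to 3, as did the receptor gene share (3.88, 7.55 and 9.38%). In cKO Ifng was highest in library 3, where that share was highest (2.58%). The count of Ifna7 was highest in cKO library 1 and that of Ifna13 in cKO library 2. The part of that share in the ligand calls was not tested. Ifnab and Ifnz passed the filter and were not called. Ifnb1, for interferon beta, and Ifne had no count in any library, which at 3 counts a library allows up to 0.0532 CPM in the deepest library and up to 0.4509 CPM in the shallowest.

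Of 6 receptor genes 4 fell with MAR1, beside 26.5% of all genes. Ifnar1 was at 10.7, 12.4 and 9.77 CPM with MAR1 and 35.1, 37.5 and 39.3 CPM with isotype, and it fell by 1.77 ± 0.33 (edgeR, adjusted p = 0.00095). Ifnar2, Ifngr1 and Ifnlr1 fell by 1.65, 1.40 and 1.66, and Ifngr2 and Il10rb were not called. In cKO against fl/fl Ifnar1, Ifnar2 and Ifngr1 fell by 1.06, 1.23 and 1.30, where 5.97% of all genes were called lower. Of 8 kinases and further factors 5 fell with MAR1, among them Jak1 (-2.36 ± 0.37), Jak2, Irf5 and Irf3, and 3 fell in cKO, Irf5, Irf8 and Irf2. No receptor or kinase gene was called against untreated skin in either arm. How far the cKO calls of the ligands, of these genes and of the lists below depend on single fl/fl libraries was not tested.

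Of 11 genes for upstream sensors and adaptors 4 rose and 4 fell with MAR1, beside 22.6 and 26.5% of all genes. By p these were led by Mavs, the adaptor of RNA sensors at mitochondria (-2.66 ± 0.31), Myd88 and Tlr7, which fell, and Tlr3, which rose by 1.82 ± 0.49. In cKO Mavs, Myd88 and Sting1 fell, where 5.97% of all genes were called lower. In isotype against untreated Dhx58 alone fell, by 2.72 ± 0.59, where 1.72% of all genes were called lower. Of 7 negative regulators 4 fell with MAR1 (Usp25, Socs3, Trex1 and Adar) and 3 in cKO (Socs1, Socs3 and Trex1).

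Further targets outside the 39 genes were counted as well. Beside 22.6 and 26.5% of all genes, 6 of 23 other interferon gamma targets rose and 3 fell with MAR1. By p these were led by Serping1 (-3.60 ± 0.47), Psmb10 (2.56 ± 0.56), B2m (-1.67 ± 0.40) and Ciita (3.40 ± 0.93), the last being the master regulator of MHC class II. In isotype against untreated Gbp6 alone fell, by 3.25 ± 0.65, beside 1.72% of all genes, and 21 of 23 were below 0. In fl/fl against isotype 4 of the 23, Psmb8, Psmb9, Gbp6 and Tap1, rose, beside 1.25% of all genes. Of these Psmb8, Psmb9 and Tap1 serve the making and transport of peptides for MHC class I. How far these calls depend on single fl/fl libraries was not tested. Of 35 other type I targets 7 rose and 8 fell with MAR1, shares near those of all genes (22.6 and 26.5%). By p they were led by Ifitm2 (-4.92 ± 0.66), Lgals3bp (-4.16 ± 0.71) and Eif2ak2, the kinase PKR (3.06 ± 0.53). In cKO 11 of the 35 fell, beside 5.97% of all genes, led by Ifi27l2a (-2.60 ± 0.58) and Ifi205 (-2.84 ± 0.64). These cKO calls were likewise not tested with single fl/fl libraries left out. With isotype against untreated 5 fell and 1 rose, beside 1.72 and 1.35% of all genes. Ifi27l2a was at 531 and 435 CPM in untreated skin and 45, 22.5 and 55.6 CPM with isotype. The gene that rose was Ifitm1, a membrane protein against viral entry, at 4.43 and 7.83 CPM in untreated skin and 47.8, 31.4 and 30.9 CPM with isotype (2.58 ± 0.56, adjusted p = 0.0267). It was also the only one called in fl/fl against untreated (2.78 ± 0.57, adjusted p = 0.0261), where 0.769% of all genes were higher, and with MAR1 it fell by 2.73 ± 0.49 against isotype.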

How the data were processed

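The authors deposited unscaled estimated counts for each gene symbol; Salmon 1.2.1, DESeq2 1.44.0 and the build GRCm39 are named, without their roles, per the submitters' processing notes. How reads were assigned to near-identical genes is not given in the sources used here. The estimated counts were rounded, and the entry that names no gene (0.0137 to 0.913% of counts) was left out.

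Genes were filtered with filterByExpr and scaled with TMM, and 1 model with all 5 groups (14 libraries, 9 residual degrees of freedom) was fitted with edgeR 4.0.16 (R 4.3.3, quasi-likelihood test, robust), with Benjamini-Hochberg adjustment over 20939 genes; the code was tested on simulated data. SE is the log2 fold change divided by the root of F. Alternatives were DESeq2 1.42.0, RLE scaling, no filter or a stricter one (1 CPM in 3 libraries), the replicate number as a block, fits of only the groups compared, summed untreated libraries and each library left out. Leaving out the salivary or the receptor-rich libraries was added after the data were seen.

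Members and lists were chosen with earlier results of these data known. Members named in full are, per class, up to 4 by p in isotype against untreated and up to 2 in each of MAR1 against isotype and cKO against fl/fl, plus every member called where these are 12 or fewer in a comparison; for other lists, up to 4 called genes by p, and the ligands and receptors. Other members named with values were chosen after their values were seen. Replicates of a group differed by more than sampling noise (chi-square per degree of freedom from 18.5 to 1037). Motifs were searched in RefSeq promoter windows.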

Additional observations from a re-analysis of the deposited data

Results flagged for a closer look

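The fold change of Bst2 against untreated skin was 2.28 higher on the log2 scale in fl/fl than in isotype (edgeR, adjusted p = 0.0412), a tested difference between 2 arms of the same contrast, and it was -0.39 without fl/fl libraries 1 and 2. The Y-linked gene Ddx3y was at 69.9 CPM in cKO library 1 although the mice are labelled female. Olfactory and vomeronasal receptor genes, which are not among the genes compared, took 3.88, 7.55 and 9.38% of the counts in MAR1 libraries 1, 2 and 3, above the level in every isotype and untreated library.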

How the results depend on the processing

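Members called were recounted under each alternative. In MAR1 against isotype 21 of the 22 calls were kept with DESeq2, 22 with only the groups compared and 17 with the replicate number as a block. DESeq2 and the fit of only the groups compared also called further members there. DESeq2 called 23 in isotype against untreated (10 with edgeR), 1 in fl/fl against untreated (0), 6 in cKO against fl/fl (3), 13 in fl/fl against isotype (1) and 25 for the cKO effect minus the MAR1 effect (7). Calls over all 20939 genes rose as well, from 644 to 2131, 360 to 2072, 3906 to 5877, 1094 to 3298 and 1667 to 3636 in the same order. Fits of only the groups compared called 31, 0, 0 and 0 in isotype against untreated, fl/fl against untreated, cKO against fl/fl and fl/fl against isotype, beside 3553 of 17528, 0 of 16893, 1409 of 17036 and 455 of 16709 genes. With both untreated libraries summed, isotype against untreated gave 0. With the replicate number as a block (replicate block), the counts were 0 for isotype against untreated, 1 for cKO against fl/fl, 0 for fl/fl against isotype and 0 for the difference of effects; same-numbered libraries did not deviate together (correlations from -0.236 to 0.087), so they share only a number. With 1 library left out, the counts ran from 0 to 2 for isotype against untreated, 0 to 2 for fl/fl against untreated, 11 to 18 for MAR1 against isotype, 1 to 9 for cKO against fl/fl, 0 to 15 for fl/fl against isotype and 0 to 24 for the difference of effects. Without the MAR1 libraries richest in receptor genes, MAR1 against isotype gave 1 and the difference of effects 0. Without both salivary fl/fl libraries, the counts were 23 for fl/fl against untreated, 7 for cKO against fl/fl, 0 for fl/fl against isotype and 0 for the difference of effects. Isg15 then reversed in cKO against fl/fl to 0.31, and Bst2 reversed in fl/fl against isotype to -0.39.

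The type I median minus the GTPase median was -0.77 in fl/fl against untreated, and between -0.95 and -0.23 with 1 library left out. It was -1.12 in cKO against fl/fl without the salivary libraries, and -0.60 for the difference of effects without the receptor-rich MAR1 libraries. RLE scaling and DESeq2 raised the median of all genes by 0.59 with MAR1, by 0.12 in cKO, and moved it by -0.46 in the difference of effects. In MAR1 against isotype 11 of the 22 calls were kept with each library left out and 1, Rsad2, under every alternative run; in the other comparisons with calls, 0 were kept under each library left out. The cause of these changes was not tested, beyond the smaller number of libraries where some are left out. Depth limits the 2 to 4 members with under 10 counts in each MAR1 library. Where 1 untreated library is left out, the other is assumed to vary like the libraries of the other groups.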
